A study of Homo sapiens with 12 samples.

Results

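The transcripts of 7 enzymes of heme biosynthesis, ALAS2, ALAD, UROS, UROD, CPOX, PPOX and FECH, were followed across 3 human erythroleukemia lines by RNA-seq. The enzymes were listed by name, as members of the known pathway. They make up 7 of the 60671 genes in the count table, and 7 of 7 passed the filter on low counts, which left 18626 genes. K562 is the parental line, grown from the blast crisis of chronic myeloid leukemia and carrying an erythroid program. K/VP.5 is a clonal derivative of K562 that was selected for resistance by intermittent and then continuous exposure to etoposide, a poison of DNA topoisomerase II. K562/SSedit-2 is a clone obtained from K562 by Cas9 cutting and repair from a template that silenced the 5′ splice site at the boundary of exon 19 and intron 19 of TOP2A, and it carries edited and unedited alleles. There were 4 samples of each line, 12 in all, from cells in mid-log phase in the same medium with serum, with no drug named for these samples. Each derived line is 1 clone, so the treatment or edit of a line and the history of its clone cannot be told apart. Nothing in the labels says that the 4 samples of a line came from separate cultures, and p-values then measure only the spread between these samples, which may be technical.

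Heme is made in steps that begin and end in the mitochondrion. ALAS2, the erythroid 5-aminolevulinate synthase, joins glycine and succinyl-CoA in the first and rate-limiting step, which all other tissues run with its housekeeping relative ALAS1. In the cytosol ALAD joins the product in pairs, UROS closes the ring that gives uroporphyrinogen III, and UROD trims the side chains of that ring. CPOX and PPOX then oxidize it back in the mitochondrion, and FECH, an iron-sulfur protein of the inner membrane, inserts iron. Erythroid cells raise these enzymes together with globin as they mature, and GATA1 is the best-known transcription factor of that program.

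The libraries held 36883518 to 43648830 counts in the parental line, 28981722 to 39944440 for K/VP.5 and 32355417 to 37619488 in the edited clone. The 7 enzymes took 0.0689% to 0.0745% of all counts in K562, with 0.0911% to 0.0961% for K/VP.5 and 0.0891% to 0.0925% for K562/SSedit-2. TOP2A, the edited gene, stood at 402 ± 59.1 CPM in K562 (mean ± SD, n = 4), where CPM are a gene's counts scaled to the size of its library. K/VP.5 held 275 ± 7.50 CPM of it, and K562/SSedit-2 held 192 ± 16. Of 8 erythroleukemia markers all 8 were tested, and their summed level ranged from 3281 to 4102 CPM in the parental line, from 3108 to 3440 in the selected line and from 4633 to 4935 in the edited clone. Of 8 markers of other cell types, CD3E, MS4A1, DCN and LUM were too low to test, and the sum of all 8 was 179 to 236 CPM, 147 to 158 and 204 to 230 in the same order, most of it from EPCAM. Among these, endothelial PECAM1 fell from 24.8 to 0.286 CPM in K/VP.5, and the collagen gene COL1A1 rose from 2.59 to 22.5. The part of these markers in the differences below was not tested. The library of K562 replicate 1 stood apart from its line. The chi-square per degree of freedom of its counts against the other K562 libraries was 59.3 to 61.8, while no other pair of replicates of any line exceeded 21.3.

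Promoters bear on these genes because GATA factors read the letters GATAA or GATAG when an A or a T stands before them, on either strand. The RefSeq table of windows around gene starts (GRCh38.p14) held 8 entries for 6 of the 7 enzymes and none for UROS. Across all 35116 windows of 250 bases upstream of a start, 22.3% held such a run of 6 letters, called a GATA hexamer here, 54.7% held CACCC and 42.6% held GGGCGG on either strand. A GATA hexamer lay 127 bases before the start of ALAS2, at 207 and 125 bases before that of CPOX, 63 bases before the second PPOX entry and 68 bases before the second ALAD entry, and none overlapped a match of the other motifs. UROD, FECH and the other entries of PPOX and ALAD held none in this window. Shown here are the upstream bases, outside the annotated gene, of ALAS2, the enzyme that differed most from K562 in both derived lines, of CPOX with its pair of matches, and of FECH, which rose by a like amount in both derived lines and held none. All 3 lie on the minus strand and are written 5′ to 3′ along the gene, with GATA hexamers in capitals. The distances above run to the RefSeq start. The CPOX and FECH sequences end before that start, where the annotated gene begins.
ALAS2, chrX:55030978-55031227: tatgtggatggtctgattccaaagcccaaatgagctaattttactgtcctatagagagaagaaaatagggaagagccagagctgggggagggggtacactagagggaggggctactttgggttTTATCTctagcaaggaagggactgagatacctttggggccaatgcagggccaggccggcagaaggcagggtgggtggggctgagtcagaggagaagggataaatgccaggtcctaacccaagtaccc
CPOX, chr3:98593649-98593861: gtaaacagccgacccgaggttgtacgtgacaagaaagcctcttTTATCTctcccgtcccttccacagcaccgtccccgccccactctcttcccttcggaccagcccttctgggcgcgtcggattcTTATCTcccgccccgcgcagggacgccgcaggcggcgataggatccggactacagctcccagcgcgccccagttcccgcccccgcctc
FECH, chr18:57586733-57586952: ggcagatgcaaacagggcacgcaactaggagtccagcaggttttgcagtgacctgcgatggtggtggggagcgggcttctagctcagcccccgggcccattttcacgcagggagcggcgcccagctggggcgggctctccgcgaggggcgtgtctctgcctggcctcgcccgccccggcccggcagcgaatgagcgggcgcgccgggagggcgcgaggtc
A match describes the letters only. Binding of GATA factors was not measured here.

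Both derived lines held more transcript of most of the pathway than K562, and the first enzyme moved most. In K/VP.5, 6 of the 7 enzymes were higher than in K562 at a 10% false discovery rate, where 26.2% of all tested genes were higher, and 1, UROS, was lower, where 26.1% were lower. Past the additional fold cutoff of 2 stood 1 enzyme, ALAS2, where 15.6% of all tested genes passed it in either direction. In K562/SSedit-2, 5 of the 7 were higher than in K562 (ALAS2, UROD, CPOX, PPOX and FECH), where 4.86% of all tested genes were higher, and 0 were lower, where 7.79% were lower. With an unadjusted p under 0.05, with DESeq2 and with limma voom, 0 enzymes were lower as well. By edgeR 0 enzymes passed the fold cutoff there, and by the other tools also 0, where 2.06% of all tested genes passed it. The 7 had median log2 fold changes of 0.44 for K/VP.5 and 0.36 for K562/SSedit-2, beside 0.01 and -0.01 over all tested genes. Both contrasts use the same 4 K562 samples. Set against each other directly, K562/SSedit-2 was higher than K/VP.5 in 1 enzyme, UROS, where 26.2% of all genes were higher, and lower in 3, ALAS2, ALAD and PPOX, where 27.8% were lower. No enzyme passed the fold cutoff in that contrast, and 15.8% of all genes did. Calls come from the edgeR quasi-likelihood test, with p adjusted by Benjamini-Hochberg across the 18626 genes. Without K562 replicate 1 the counts of enzymes called were again 6 higher and 1 lower for K/VP.5, and 5 higher and 0 lower for K562/SSedit-2. Left out of the fit, it moved the log2 fold changes for K/VP.5 to 1.45 for ALAS2, 0.20 for ALAD, -0.83 for UROS, 0.19 for UROD, 0.42 for CPOX, 0.58 for PPOX and 0.42 for FECH. Those for K562/SSedit-2 became 0.86, -0.05, 0.10, 0.26, 0.44, 0.32 and 0.41 in the same order. In RNA from whole cultures, fewer cells that express a gene and less RNA per cell cannot be told apart.

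**Figure D1:**
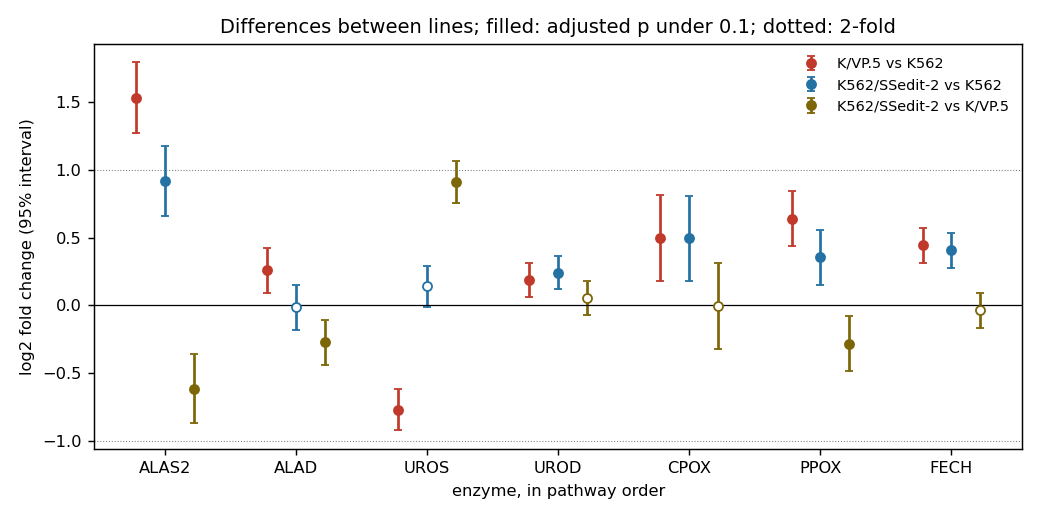
Log2 fold change (y axis) of each enzyme in pathway order (x axis) for the 3 contrasts between lines, with 95% intervals; filled points have an adjusted p under 0.1, and dotted lines mark 2-fold. ALAS2 stands at 1.53 for K/VP.5 and 0.92 for K562/SSedit-2, UROS is the enzyme below 0 in K/VP.5 at -0.77, and FECH is at 0.44 and 0.41 in the derived lines.

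The plot of fold changes shows that the enzymes did not move by equal amounts. ALAS2 and PPOX rose more in K/VP.5 than in K562/SSedit-2, FECH and CPOX held nearly equal values in both, and UROS moved down in K/VP.5 while its interval in K562/SSedit-2 included 0.

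ALAS2 (ENSG00000158578, chromosome X, 55009055 to 55030977, minus strand, GRCh38) supplies the erythroid first step. Its 4 K562 samples held 29.8, 29.6, 37.4 and 38.8 CPM. The K/VP.5 samples held 95.1, 91.2, 102 and 103 CPM, and those of K562/SSedit-2 held 48.6, 61.2, 71.6 and 74.6 CPM. No sample of any line overlapped those of another, and the edited clone lay between the parental and the selected line. ALAS2 was 2.89-fold higher in K/VP.5 than in K562 (log2 fold change 1.53 ± 0.12 SE, adjusted p = 3.33e-08) and 1.89-fold higher in K562/SSedit-2 (0.92 ± 0.12, adjusted p = 1.57e-04). Between the derived lines the log2 fold change was -0.61 ± 0.12 in K562/SSedit-2 relative to K/VP.5 (adjusted p = 4.83e-04). A two-sided exact permutation test of mean CPM gave p = 0.029 in all 3 contrasts, the smallest that 4 samples against 4 allow. Without K562/SSedit-2 replicate 1, the lowest of its line, the difference from K562 was 1.03 and passed the fold cutoff. Replicates 1 and 2 were below replicates 3 and 4 in all 3 lines, and this fit kept K562 replicate 1.

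ALAS1, the housekeeping synthase, ran near 43 CPM throughout. It stood at 43.2, 42.3, 45.1 and 42.2 CPM in K562. K/VP.5 samples held 38.6, 45.5, 44.6 and 38.6, and K562/SSedit-2 samples 42.2, 45.8, 46.5 and 45.2. Groups overlapped in every contrast, and the log2 fold change was -0.05 for K/VP.5 (95% interval -0.20 to 0.10) and 0.05 for K562/SSedit-2 (-0.10 to 0.21). Per kilobase of exon, the ratio of ALAS2 to ALAS1 was 0.971 ± 0.135 in the parental line, 2.92 ± 0.347 in the selected line and 1.76 ± 0.275 in the edited clone (SD, n = 4). The ranges of 0.853 to 1.14, 2.49 to 3.31 and 1.43 to 2.05 did not overlap, so the erythroid form went from about the level of the housekeeping form in K562 to well above it in both derived lines.

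**Figure D2:**
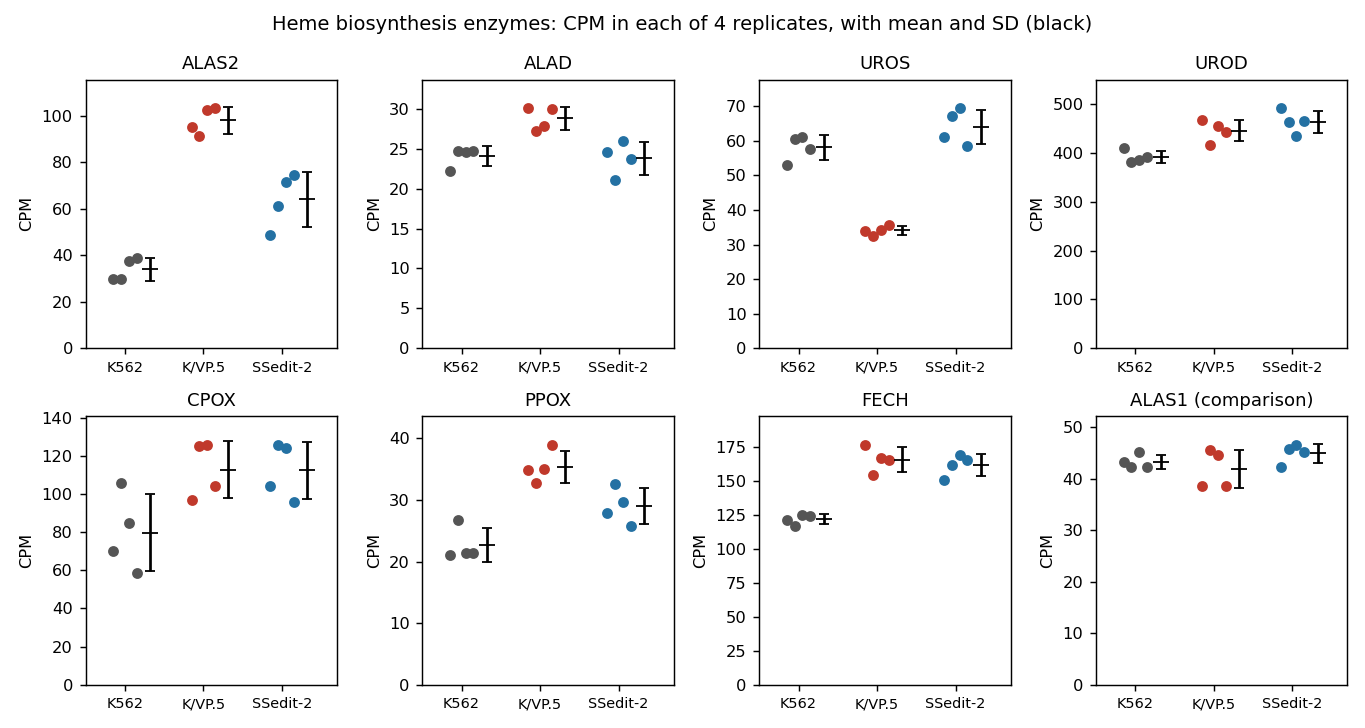
CPM (y axis, from 0) of each enzyme and of ALAS1 in the 4 samples of each line (x axis), with the mean and SD in black. ALAS2 runs from 29.6 to 38.8 CPM in the parental line, from 91.2 to 103 in the selected line and from 48.6 to 74.6 in the edited clone, while UROS is lowest in K/VP.5.

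The plot of levels shows the 3 lines as separate clusters of points for ALAS2, K/VP.5 apart from the others for ALAD and UROS, both derived lines above K562 for UROD and FECH, and overlapping points for CPOX. Spread within a line also differed between enzymes. FECH had a coefficient of variation of 2.98% in K562, and CPOX had 25.4%.

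The cytosolic enzymes came next. ALAD (ENSG00000148218, chromosome 9, 113386312 to 113401290, minus strand), the zinc enzyme that lead inhibits, held 22.3, 24.8, 24.5 and 24.7 CPM in K562. K/VP.5 held 30.1, 27.2, 27.9 and 30.1 CPM of it and K562/SSedit-2 24.6, 21.1, 26 and 23.7 CPM. All K/VP.5 samples lay above every sample of the other lines. The rise in K/VP.5 was 19.6% (log2 fold change 0.26 ± 0.078, adjusted p = 0.0127). In K562/SSedit-2 the log2 fold change was -0.02, with a 95% interval of -0.18 to 0.15, and its direct difference from K/VP.5 was -0.27 (adjusted p = 0.00859).

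UROS (ENSG00000188690, chromosome 10, 125784980 to 125823258, minus strand), whose loss causes congenital erythropoietic porphyria, went the other way. Its samples read 53.1, 60.7, 61.2 and 57.6 CPM in K562. K/VP.5 samples read 33.9, 32.5, 34.3 and 35.7 CPM, and K562/SSedit-2 samples 61.2, 67.1, 69.4 and 58.7. The K/VP.5 values lay below all others. The change of UROS there relative to K562 was -41.3% (log2 fold change -0.77 ± 0.073, adjusted p = 2.18e-07), and K562/SSedit-2 exceeded K/VP.5 by 0.91 (adjusted p = 2.84e-08). Between K562/SSedit-2 and K562 the samples overlapped, at 0.14 (95% interval -0.01 to 0.29, adjusted p = 0.262).

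Genes on either side of UROS were lower in K/VP.5 as well. Within 2 Mb lay 17 other tested genes, of which 11 were lower, 0 were higher and the median log2 fold change was -0.63. The nearby protein-coding genes EDRF1, BCCIP and DHX32, named after their values were seen, stood at -0.63, -0.80 and -0.94. In K562/SSedit-2 the same 17 had a median of 0.04 relative to K562, with 1 higher and 1 lower. With windows of 1 Mb and 5 Mb, both added after seeing the data, the K/VP.5 median was -0.66 over 13 genes and -0.58 over 34. The lower values ran along the end of chromosome 10. From 85 Mb onward, a boundary set after seeing the values, 295 tested genes had a median of -0.57 in K/VP.5, and 204 of them (69.2%) were lower and 18 higher. Before that boundary 409 genes had a median of 0.01, with 107 (26.2%) lower and 111 higher. In K562/SSedit-2 both stretches were level with K562, at -0.01 and 0.03. Gene copy number was not measured here, and its part in the value of UROS was not tested.

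**Figure D3:**
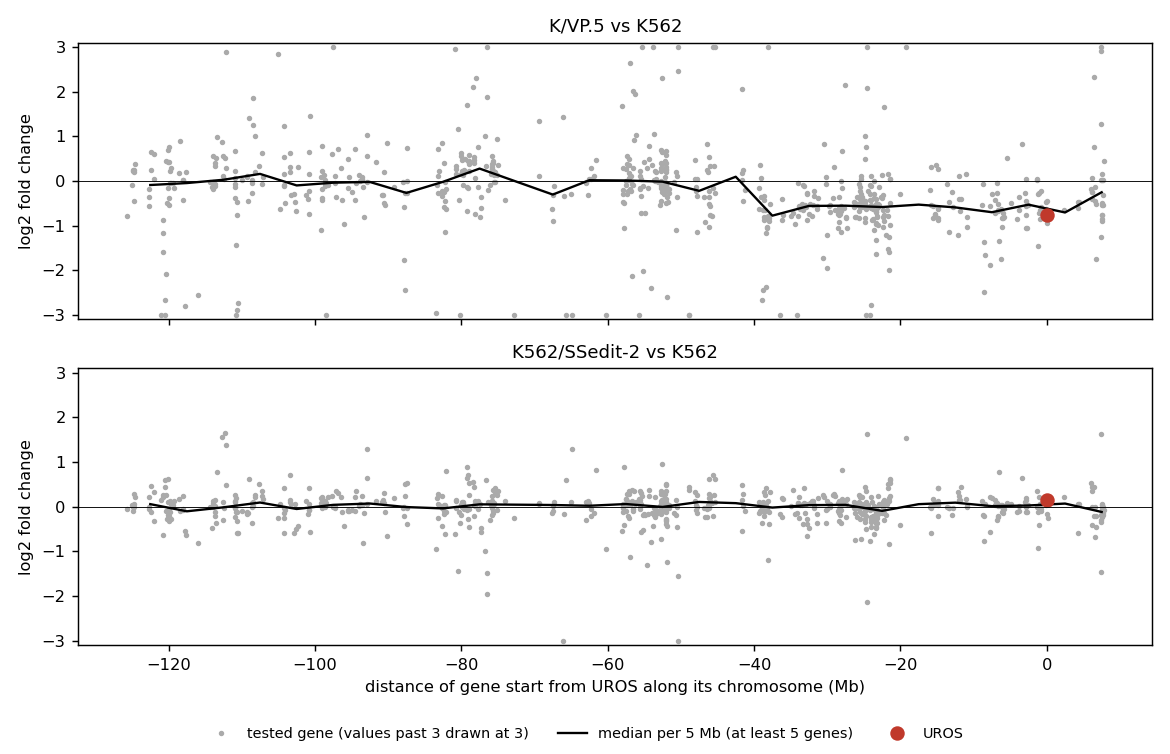
Log2 fold change (y axis, values past 3 drawn at 3) of tested genes on chromosome 10 by distance from UROS in Mb (x axis), in K/VP.5 (top) and K562/SSedit-2 (bottom) relative to K562; the line is the median per 5 Mb where at least 5 genes fall. In K/VP.5 UROS at -0.77 lies in a stretch whose median is -0.57, and in K562/SSedit-2 the line stays near 0 along the chromosome.

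The plot of chromosome 10 places UROS among its neighbours. Its log2 fold change of -0.77 in K/VP.5 lay between the -0.63 of EDRF1 and the -0.94 of DHX32. Within 2 Mb of the other 6 enzymes the K/VP.5 medians were nearer to 0. Neighbours of ALAS2 within 2 Mb had a median of 0.24 in K/VP.5 (28 genes, 13 higher and 2 lower), beside 1.53 for ALAS2 itself. Around FECH the median was 0.11 over 14 genes, with 7 higher and 2 lower, and around CPOX it was -0.15 over 12. That of CPOX depended on the window, since the 5 genes within 1 Mb had a median of -1.03 and 5 of them were lower, beside a CPOX log2 fold change of 0.50. Those of ALAD, UROD and PPOX were -0.05, 0.08 and -0.09. In K562/SSedit-2 the medians around all 7 enzymes lay between -0.05 and 0.07.

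UROD (ENSG00000126088, chromosome 1, 45010950 to 45015575, plus strand), the enzyme deficient in porphyria cutanea tarda, was the most abundant of the 7 per kilobase in every line. K562 samples held 410, 383, 385 and 391 CPM, K/VP.5 samples 467, 418, 455 and 444, and K562/SSedit-2 samples 492, 463, 435 and 466. Every sample of the derived lines lay above the 4 of K562, by a small margin. Its rise was 13.7% in K/VP.5 (log2 fold change 0.19 ± 0.058, adjusted p = 0.0161) and 18.2% in K562/SSedit-2 (0.24 ± 0.058, adjusted p = 0.0179), and the derived lines differed by 0.06 (95% interval -0.07 to 0.18). With no filter on low counts the K/VP.5 call was lost (0.16, adjusted p = 0.139, within a range of 0.00119 to 0.139 over all alternatives). Of its exon bases, 9.31% are shared with HECTD3 on the other strand, which had log2 fold changes of 0.31 and 0.09 in the same contrasts. The strand setting of the counting is not given in the sources used here, so reads of overlapping genes on opposite strands cannot be told apart.

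The mitochondrial end of the pathway rose in both derived lines. CPOX (ENSG00000080819, chromosome 3, 98579446 to 98593648, minus strand), of the intermembrane space, held 69.9, 106, 84.9 and 58.7 CPM in K562. Its K/VP.5 samples held 96.6, 125, 126 and 104 CPM, and its K562/SSedit-2 samples 104, 126, 124 and 95.5 CPM. K562 replicate 2 overlapped both derived lines, and replicates 2 and 3 were above replicates 1 and 4 in all 3 lines. The log2 fold change was 0.50 ± 0.15 in K/VP.5 (adjusted p = 0.0117) and 0.49 ± 0.15 in K562/SSedit-2 (adjusted p = 0.0535), and exact permutation gave p = 0.086 for each. The K562/SSedit-2 call did not hold without K562 replicate 4 (0.37, adjusted p = 0.111), without K562/SSedit-2 replicate 2 (0.45, adjusted p = 0.116) or without K562/SSedit-2 replicate 3 (0.46, adjusted p = 0.113), within a range of 2.21e-06 to 0.116 over all alternatives. The permutation test and the fits without a replicate did not pair samples by replicate number. Within each number CPOX was higher in K562/SSedit-2 than in K562, and a fit with the number as a block is given below. Between the derived lines the log2 fold change was -0.01 (95% interval -0.32 to 0.31).

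PPOX (ENSG00000143224, chromosome 1, 161166056 to 161178013, plus strand), the flavoprotein altered in variegate porphyria, held 21.0, 26.8, 21.4 and 21.4 CPM in K562. Samples of K/VP.5 held 34.8, 32.7, 35 and 38.9 CPM and those of K562/SSedit-2 28.0, 32.6, 29.7 and 25.8 CPM. K/VP.5 stood above both other lines without overlap, and K562/SSedit-2 overlapped K562 through K562 replicate 2. PPOX was 1.56-fold higher in K/VP.5 (log2 fold change 0.64 ± 0.096, adjusted p = 3.66e-05) and 1.28-fold higher in K562/SSedit-2 (0.36 ± 0.096, adjusted p = 0.0309), where exact permutation gave p = 0.057. K562/SSedit-2 was lower than K/VP.5 by a log2 fold change of -0.28 (adjusted p = 0.0216). PPOX shares 23.7% of its exon bases with B4GALT3 on the other strand, which had log2 fold changes of -0.06 and -0.27 in the same contrasts.

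FECH (ENSG00000066926, chromosome 18, 57544377 to 57586732, minus strand), ferrochelatase, whose deficiency causes erythropoietic protoporphyria, rose in both derived lines. It held 122, 117, 125 and 125 CPM in K562. The selected line held 177, 154, 167 and 166 CPM and the edited clone 151, 162, 170 and 166. Both derived lines stood above K562 without overlap and overlapped each other. The rise was 35.9% in K/VP.5 (log2 fold change 0.44 ± 0.061, adjusted p = 1.58e-05) and 32.7% in K562/SSedit-2 (0.41 ± 0.061, adjusted p = 4.62e-04). The derived lines differed by -0.03, with a 95% interval of -0.16 to 0.09. Its pseudogene FECHP1 had 0 counts in all 12 libraries.

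Levels can be compared between enzymes only per length, here as CPM per kilobase of annotated exon (RPKM). In K562 the order was UROD at 97.4 RPKM, CPOX at 25.3, ALAS2 at 16.6, FECH at 11, UROS at 6.12, ALAD at 4.87 and PPOX at 4.80. The samples of CPOX and ALAS2 overlapped there, and so did those of ALAD and PPOX. In K/VP.5 ALAS2 moved to the second place at 47.9 RPKM, after UROD at 111 and ahead of CPOX at 35.7, FECH at 14.9, PPOX at 7.48, ALAD at 5.83 and UROS at 3.59, with no overlap between neighbours in this order. In K562/SSedit-2 the order was UROD at 115, CPOX at 35.6, ALAS2 at 31.3, FECH at 14.6, UROS at 6.74, PPOX at 6.14 and ALAD at 4.82, and CPOX overlapped ALAS2 and UROS overlapped PPOX. The order depends on the length used, most of all for UROS, whose annotated exons add up to far more than its canonical transcript. Against the canonical transcript UROS stood second in K562 at 43.5 RPKM. UROD was highest and ALAS2 was second in K/VP.5 under all 3 definitions of length.

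Companion genes are given as counts beside the same shares over all tested genes, 26.2% higher and 26.1% lower in K/VP.5 and 4.86% higher and 7.79% lower in K562/SSedit-2. Of 14 genes of precursor supply and transport 13 were tested, and in K/VP.5 4 were higher and 5 lower, with a median log2 fold change of -0.07. Higher were ABCB6, ABCB10, the erythroid mitochondrial iron importer SLC25A37 and the heme exporter FLVCR1, from 0.20 to 0.44. SLC48A1, a lysosomal heme importer, fell past 2-fold there, from 62.5 to 28.8 CPM (log2 fold change -1.12, adjusted p = 7.41e-09). In K562/SSedit-2 1 gene of this list was higher, SLC25A37 at 0.61 (97.5 to 149 CPM, adjusted p = 2.19e-05), and 0 were lower, with a median of 0.06. ALAS1, described above, belongs to this list.

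Of 8 genes of heme breakdown and sensing 7 were tested. In K/VP.5 4 were lower and 1 higher, where 26.1% and 26.2% of all tested genes were, with a median log2 fold change of -0.31. The heme oxygenase HMOX2 stood at -0.76 and the biliverdin reductase BLVRA at -0.95, and the heme-regulated kinase EIF2AK1 was the higher gene at 0.44. Inducible heme oxygenase HMOX1 was too low to test. In K562/SSedit-2 BLVRB was higher at 0.28 and HMOX2 lower at -0.27, the median was 0.10, and BLVRA was 1.07 above K/VP.5 on the log2 scale (adjusted p = 8.77e-08).

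Iron-sulfur cluster assembly, on which FECH depends for its cofactor, had 13 of 14 genes tested. In K/VP.5 7 were lower and 2, HSPA9 and IBA57, were higher, where 26.1% of all tested genes were lower and 26.2% higher, with a median of -0.25. In K562/SSedit-2 GLRX5 was higher at 0.33 and FDXR and IBA57 lower at -0.50 and -0.22, with a median of -0.04. Among 11 genes that supply succinyl-CoA and glycine, the substrates of ALAS2, 3 were higher and 2 lower in K/VP.5, beside 26.2% and 26.1% of all genes, with a median of 0.00. The succinyl-CoA ligase subunit SUCLA2 stood at 0.83 there, and the serine-pathway enzyme PSAT1 fell from 95.7 to 21.8 CPM (log2 fold change -2.13, adjusted p = 1.33e-10). In K562/SSedit-2 1 was higher, SUCLG1 at 0.22, and 1 lower, PSAT1 at -0.35, and PSAT1 was 1.79 above K/VP.5.

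Of 8 erythroid transcription factors, 6 were lower and 1 was higher in K/VP.5, where 26.1% and 26.2% of all tested genes were, with a median log2 fold change of -0.69, and 1 was higher and 0 lower in K562/SSedit-2, with a median of 0.01. GATA1 fell from 387 to 275 CPM in K/VP.5 (-0.49, adjusted p = 8.01e-04) and was at 388 CPM in K562/SSedit-2 (0.00, 95% interval -0.21 to 0.22). TAL1 was the higher factor in both, at 0.65 and 0.31. Of 6 globin genes, 2 were higher in K/VP.5, HBG1 at 0.72 and HBE1 at 2.12, and 5 were higher in K562/SSedit-2, where 26.2% and 4.86% of all tested genes were higher, with medians of -0.01 and 0.69. HBG1 was at 0.75 in K562/SSedit-2, HBG2 at 0.74, HBA1 at 0.63, HBZ at 0.59, and HBE1 at 1.76 from a level of 0.484 CPM in K562. HBA1 and HBA2, and HBG1 and HBG2, are near-identical copies, and how reads were split between them is uncertain.

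**Figure D4:**
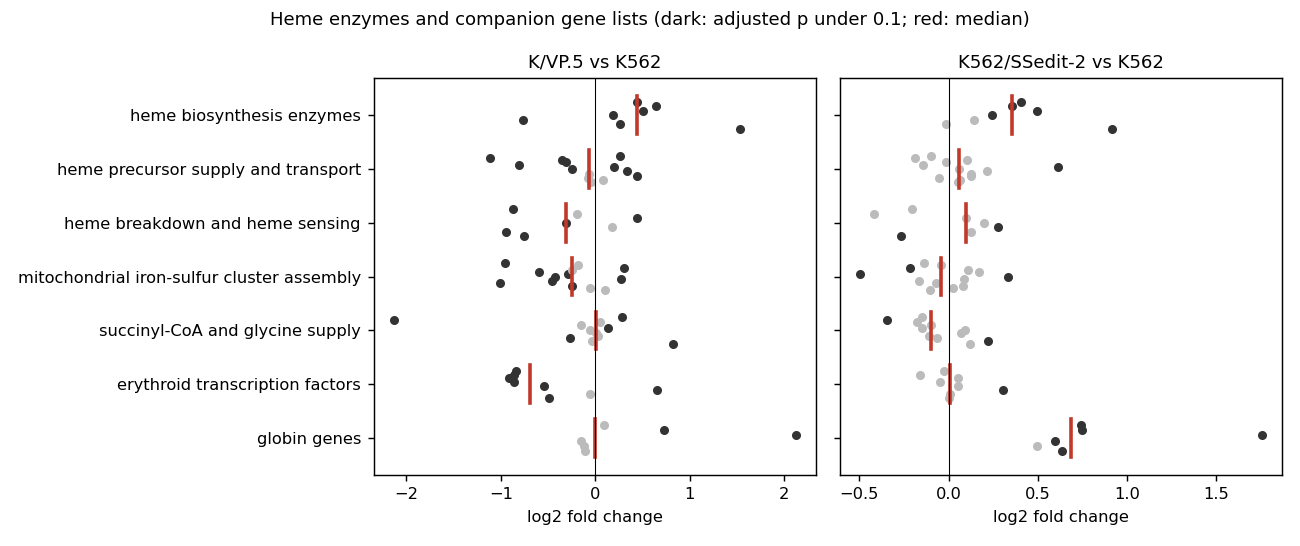
Log2 fold change (x axis) of each tested gene of the heme enzymes and of 6 companion lists (y axis) in K/VP.5 (left) and K562/SSedit-2 (right) relative to K562, with genes at an adjusted p under 0.1 in dark and list medians in red. Medians of the heme enzymes are 0.44 and 0.36, those of the erythroid factors -0.69 and 0.01, and those of the globins -0.01 and 0.69.

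In the plot of companion lists the median of the heme enzymes lies to the right of 0 in both panels, that of the erythroid factors to the left in K/VP.5 and that of the globins to the right in K562/SSedit-2. Single genes cross these sides, with UROS left of 0 in K/VP.5 and TAL1 right of it. Whether the lists differ from one another was not tested.

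Likeness of pattern was measured as Pearson's r of log2 CPM over the 12 samples, among 8875 tested genes of at least 10 CPM. The samples come from 3 lines and share their libraries, so r mostly describes differences between lines. ALAS2 was most like ERMAP, a red cell membrane protein (r = 0.99), which ran at 34.1, 65.3 and 50.2 CPM in the parental, selected and edited line, followed by SARS1 and TAF13. FECH was most like HBG1 (r = 0.98), at 132, 218 and 221 CPM, and then HEMGN and MANEAL. HBG2, the near-identical copy of HBG1, ran at 224, 239 and 374 CPM, and how reads were split between them is uncertain. UROS was most like IMMP2L (r = 0.99), then RNF167 and COA4, and PPOX like MRC2 (r = 0.96), NEU1 and PTP4A3. ALAD was most like HEATR3 (r = 0.96), BRPF3 and PLD6, and UROD like SCG3 (r = 0.95), BCAS2 and CENPL. CPOX had the lowest likeness to its nearest gene, GADD45A (r = 0.86), followed by RSBN1 and DMTN.

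Among the enzymes themselves, ALAS2 and FECH were the most alike pair (r = 0.92), and their deviations from the line means also ran together (r = 0.71). ALAS2 and PPOX had r = 0.85 over all samples and -0.21 within lines. UROS had a negative r with each of the other 6, from -0.78 with ALAD to -0.18 with UROD. Within lines UROS and PPOX had r = 0.71, against -0.61 over all samples, so the opposite course of this pair was between lines and not among replicates.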

How the data were processed

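RNA-seq of 3 lines with 4 samples each was used. The authors mapped reads to GRCh38 with HISAT2 and deposited raw counts per gene from featureCounts, without normalization, for 60671 Ensembl genes. The annotation release, the strand setting and the treatment of reads with several matches are not given in the sources used here. Positions, lengths and symbols were taken from GENCODE 44, which held 60401 of the gene IDs. In the 18 pairs of replicates the chi-square per degree of freedom of the counts was 5.15 to 61.8, highest for those with K562 replicate 1, so no library was a copy of another.

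Genes were kept by filterByExpr of edgeR 4.0.16 (minimum count 10), leaving 18626. With TMM factors, all 12 samples were fitted by line in 1 model (R 4.3.3) and compared by the quasi-likelihood F test, with Benjamini-Hochberg adjusted p across all 18626 genes. Calls have an adjusted p under 0.1, and the fold cutoff is 2. The study names limma voom for its own test. That test was run as an alternative, since the deposited values are counts. CPM use the TMM-scaled counts of tested genes, SE was taken as log2 fold change over the root of F, and intervals are 95%. Total counts of 28981722 to 43648830 per library set the precision of each value, and SDs give the spread over samples. Permutation tests were two-sided and exact. The steps were tested on simulated counts. Figures were drawn with matplotlib 3.10.9.

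Replicate numbers in the labels are shared by the lines. Deviations from the line means of same-numbered samples correlated at 0.29, 0.14, 0.25 and 0.14 between K562/SSedit-2 and K562. These numbers were therefore taken to pair the samples, from the data and not from a stated source, and a fit with the number as a block was run. The calls and permutation tests in the Results did not use this pairing.

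The 7 enzymes and the companion lists were chosen with earlier results of these data known, and 1 further enzyme of the pathway and some genes of the lists are not reported here by name. Named beside the enzymes are ALAS1, TOP2A, GATA1, the globins, up to 3 members per companion list and contrast past 2-fold, and the 3 genes most alike in pattern to each enzyme. Other genes were named after their values were seen. The alternatives were other scalings, tests and filters, fits of 2 lines only, the block, each replicate left out, an adjusted p under 0.05 and other gene lengths and windows.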

Additional observations from a re-analysis of the deposited data

Results flagged for a closer look

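Of 21 groups of 4 samples (7 enzymes in 3 lines), 2 held a sample far from the others, where chance marks about 1 group in 20. ALAD in K562 replicate 1 stood at 22.3 CPM, against 24.5 to 24.8 CPM in the other K562 samples. PPOX in K562 replicate 2 stood at 26.8 CPM, against 21.0 to 21.4 CPM in the others, and this sample alone overlapped K562/SSedit-2.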

How the results depend on the processing

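Of 378 recomputed log2 fold changes of the enzymes, 361 kept their direction and side of the threshold, 5 kept direction but lost the call, and 12 changed sign without a call in either fit, for ALAD between K562/SSedit-2 and K562 and for CPOX and FECH between the derived lines. No called value changed sign. The 5 are UROD in K/VP.5 with no filter (0.16) and CPOX in K562/SSedit-2 at an adjusted p under 0.05 and without K562 replicate 4, K562/SSedit-2 replicate 2 or K562/SSedit-2 replicate 3 (0.37 to 0.46). The count of enzymes past 2-fold in K562/SSedit-2 relative to K562 ranged from 0 to 1 when replicates were left out. With the replicate block, CPOX stood at 0.52 in K/VP.5 (adjusted p = 7.95e-05) and 0.51 in K562/SSedit-2 (9.40e-04), from edgeR, and the block changed no call of an enzyme. Over all genes the block moved the calls from 9747 to 10257 in K/VP.5 and from 2356 to 3063 in K562/SSedit-2 relative to K562, and from 10055 to 10561 between the derived lines. Same-numbered samples correlated on average at 0.11 for K/VP.5 and K562 and at 0.03 for the derived lines, too little to pair them. Per-kilobase levels moved with the gene length used. Each derived line is 1 clone, and 4 samples a line cannot give a permutation p under 0.029.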
